A study of Rattus norvegicus with 4 samples.

Results

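The purinergic P2 receptors are the cell-surface receptors for extracellular ATP and related nucleotides. This report follows 10 of them through the lumbar dorsal root ganglia (DRG) of Wistar rats that received vehicle or cisplatin, a platinum chemotherapy drug that can leave lasting sensory neuropathy. The members were the rows named P2rx2, P2rx3, P2rx4, P2rx5, P2rx6, P2rx7, P2ry1, P2ry2, P2ry12 and P2ry14 with a protein-coding biotype, 10 of the 22293 protein-coding genes in the deposited table. They were found in the table by name, with no measured value in the rule. All 10 passed the filter on low counts, as did 14719 protein-coding genes in all.

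The rats were neonatal, with WT as their genotype, and were injected at P14 and P16 with PBS (vehicle) or with 0.3 mg/kg cisplatin. The labels place the isolation of the ganglia 16 days after treatment, whereas the study's methods give P23. Messenger RNA of whole ganglia was sequenced in 2 libraries per group, each from ganglia that had been pooled, and the sex of the rats behind a library was not given. The question was how cisplatin given early in life alters gene expression in the ganglia. Nothing in the labels says more of how replicates of a group relate than that they are separate rats, and with 2 libraries against 2 an exact permutation test cannot give a p below 0.333.

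P2X receptors are trimeric channels that open when ATP binds and let sodium and calcium in. P2Y receptors couple to G proteins and respond to ATP, ADP, UTP or UDP-sugars. In sensory ganglia P2X3, alone or joined with P2X2, is the classical ATP receptor of nociceptors, the neurons that detect harmful stimuli. P2X4, P2X7 and P2Y12 are best known from microglia, macrophages and glia, where ATP released from stressed or damaged cells acts on them.

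The libraries held 21384801 to 25618417 counts, so that 3 counts, taken as the smallest level, amounted to 0.118 to 0.152 CPM (counts per 1e6 counts, after TMM scaling). The labelled tissue was borne out by its markers in all 4 libraries: the 10 general sensory neuron markers summed to between 11932 and 20168 CPM and none was at 0. The libraries also differed within the groups. Schwann cell markers (7 genes, including the myelin gene Mbp) summed to 26582 and 17411 CPM in replicate 1 of vehicle and cisplatin, but to 63078 and 51255 CPM in replicate 2. Skeletal muscle markers summed to 523 CPM in vehicle replicate 1 against 16.7 to 55.1 CPM elsewhere. Aqp4, a water channel of central astrocytes, had 718 counts in the same library against 30 to 132 in the others. Between the groups, mitochondrially encoded genes took 1.53% and 2.58% of counts in vehicle and 5.46% and 4.78% in cisplatin, and the part of this difference in the results below was not tested. The range of values with 1 library left out is therefore given for every receptor below. In whole ganglia, fewer cells of a type and less RNA per cell cannot be told apart.

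The promoters of P2rx3, P2rx4 and P2rx7 are printed here because these were the 3 of 10 receptors whose libraries did not overlap between groups. Such separation was common, upward in 20.6% and downward in 21.2% of all genes tested, so it does not set these receptors apart. RefSeq (GRCr8) held 8 promoter windows for 7 of the 10 receptors. P2rx2, P2rx5 and P2ry12 had no entry. Each line gives the 250 bases upstream of an annotated start, 5′ to 3′ on the strand of the gene. Capitals mark matches, on either strand, to the CCAAT box, the TATA box written TATAAA, the GC box written GGGCGG, the E-box written CACGTG or the cAMP response element written TGACGTCA.
P2rx3, upstream start, chr3:90531316-90531565, minus strand: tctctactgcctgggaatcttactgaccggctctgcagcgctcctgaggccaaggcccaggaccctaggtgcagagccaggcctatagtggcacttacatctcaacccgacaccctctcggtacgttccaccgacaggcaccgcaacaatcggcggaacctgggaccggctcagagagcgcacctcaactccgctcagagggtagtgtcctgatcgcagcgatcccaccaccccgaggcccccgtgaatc
P2rx3, downstream start, chr3:90529310-90529559, minus strand: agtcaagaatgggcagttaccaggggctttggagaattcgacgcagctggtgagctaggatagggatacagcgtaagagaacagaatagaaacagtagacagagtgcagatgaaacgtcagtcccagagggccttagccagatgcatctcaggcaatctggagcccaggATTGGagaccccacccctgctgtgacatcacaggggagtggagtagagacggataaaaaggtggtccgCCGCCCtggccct
P2rx4, chr12:39523090-39523339, minus strand: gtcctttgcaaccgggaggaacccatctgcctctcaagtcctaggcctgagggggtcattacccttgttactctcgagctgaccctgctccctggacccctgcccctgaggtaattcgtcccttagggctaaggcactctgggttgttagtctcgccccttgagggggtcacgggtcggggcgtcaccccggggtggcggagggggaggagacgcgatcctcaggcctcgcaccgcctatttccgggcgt
P2rx7, chr12:39594923-39595172, minus strand: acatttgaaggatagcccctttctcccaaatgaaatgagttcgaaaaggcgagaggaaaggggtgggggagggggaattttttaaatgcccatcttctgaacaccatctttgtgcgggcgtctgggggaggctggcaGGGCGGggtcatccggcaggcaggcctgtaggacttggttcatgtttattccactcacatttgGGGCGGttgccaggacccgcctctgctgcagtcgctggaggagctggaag

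P2rx3 has 2 annotated starts with unlike sequence. The upstream window was 62.4% GC with 16 CG dinucleotides and matched none of the 5 motifs. The downstream window was 54.4% GC with 7 CG dinucleotides and held CCAAT (as ATTGG) and a GC box (as CCGCCC), which 34.0% and 30.5% of all 33469 rat windows also held. P2rx4 and P2rx7 are neighbours on chromosome 12, and their windows differed too. The P2rx4 window was 64% GC with no motif, and the P2rx7 window was 56% GC with GC boxes. TATAAA, found in 12.9% of all windows, and TGACGTCA, found in 1.59%, were in none of the 8 windows of the receptors. CACGTG, found in 5.59%, was in the P2ry2 window only. The median window over the genome was 51.2% GC with 5 CG dinucleotides.

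The receptors stood at very different levels in the ganglia. Levels between genes were compared as FPKM (fragments per kilobase of gene and per 1e6 fragments), the deposited values that allow for gene length. P2rx3 was the most abundant, with 50.5 and 41.8 FPKM in vehicle and 104 and 57.8 FPKM in cisplatin, and it lay above P2ry2, the next in order, in 4 of 4 libraries. Across the 4 libraries its mean was 63.5 FPKM ± 27.7 (SD, n = 4). It alone made up 33.4% to 59.2% of the summed FPKM of the 10 receptors, and its mean FPKM exceeded that of 90.7% of all genes tested.

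A middle tier held P2ry2 (mean 20.2 FPKM ± 10.7, SD, n = 4), P2rx4 (14.4 ± 4.52), P2rx6 (13.6 ± 1.88) and P2ry1 (13.2 ± 4.77). Neighbours within this tier changed places in 1 of 4 libraries, and each gap between their means was smaller than the larger of the SDs. P2rx7 followed at 5.33 FPKM ± 2.14, below P2ry1 in 4 of 4 libraries and above P2rx2 in 3 of 4. In cisplatin replicate 1 it stood at 2.42 FPKM, under P2rx2 (4.93) and P2rx5 (3.30). The lowest tier comprised P2rx2 (2.69 ± 1.63), P2rx5 (2.48 ± 0.629), P2ry12 (2.08 ± 0.758) and P2ry14 (1.45 ± 0.365). Of these, P2rx2 and P2rx5, and P2rx5 and P2ry12, changed places in 2 of 4 libraries, while P2ry14 was under P2ry12 in 4 of 4. P2rx2, the partner subunit of P2X3, was thus far below it: the P2rx3 to P2rx2 ratio of FPKM was 20.4 and 40.2 in vehicle and 21.1 and 24.9 in cisplatin. The cisplatin ratios lay between those of the vehicle libraries.

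**Figure D1:**
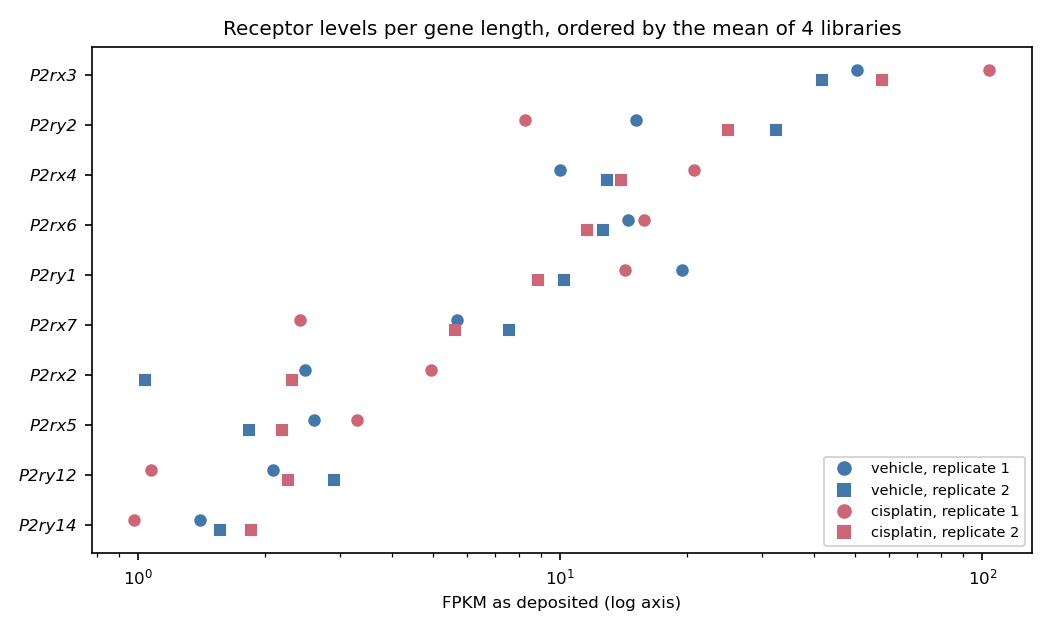
Deposited FPKM of the 10 receptors on a log axis, one point per library (blue, vehicle; red, cisplatin; circle, replicate 1; square, replicate 2), ordered by the mean of 4 libraries. P2rx3 is at 41.8 to 104 FPKM, whereas P2rx2, P2rx5, P2ry12 and P2ry14 stay below 5 FPKM.

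After cisplatin no P2 receptor passed the test, but among the 10 the channels and the G protein-coupled receptors leaned in opposite directions. Of the 6 P2X genes, 5 had a positive log2 fold change (cisplatin over vehicle; median 0.45 on the log2 scale), and all 4 P2Y genes had a negative one (median −0.45), which became 3 of 6 and 4 of 4 when edgeR was scaled to sensory neuron markers, a scaling that moved the median of all genes to −0.31. Outside the 10, the scarce P2ry6 and P2ry13 had positive log2 fold changes (0.32 and 0.05), as did P2rx1 (0.10). The P2Y lean was thus that of the 4 members and not of every P2Y gene tested. The split also depended on the libraries. Without cisplatin replicate 1, 3 of 6 P2X genes were positive (median 0.13) and 2 of 4 P2Y genes negative (median −0.04). Without vehicle replicate 2, 4 of 6 P2X genes were positive (median 0.31) and 2 of 4 P2Y genes negative (median −0.16), and without vehicle replicate 1, 3 of 4 P2Y genes were negative. A call needed a fold change of 1.5 or more together with a p below 0.05 after Benjamini-Hochberg adjustment. By this rule edgeR's quasi-likelihood test called 0 of 10 receptors, and 0.00679% of all genes tested (1 of 14719). By the same fold and an unadjusted p below 0.05 it picked out 0 of 10, against 7.95% of all genes. DESeq2 called 0 of 10 (0.951% of all genes) and picked out 1 of 10, P2rx3, at an unadjusted p (8.61% of all genes). limma on log2(FPKM + 1) gave 0 of 10 by either rule.

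Ignoring p, 5 of 10 receptors had a fitted fold change of at least 1.5 in size, P2rx2, P2rx3 and P2rx4 upward and P2rx7 and P2ry12 downward. The share over all genes was 19.6%. Both cisplatin libraries exceeded both vehicle libraries for 2 of 10 receptors (20.6% of all genes), and both lay lower for 1 of 10 (21.2% of all genes). The median log2 fold change was −0.04 over the 10 receptors and −0.01 over all genes tested.

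P2rx3 (ENSRNOG00000008552, chromosome 3, 72403993 to 72447801 in Rnor_6.0, minus strand), the ATP-gated channel of nociceptors, had 202 and 169 CPM in vehicle and 415 and 231 CPM in cisplatin. Both cisplatin libraries were above both vehicle libraries, with replicate 1 far higher than replicate 2. The log2 fold change was 0.80 (SE 0.33), with an unadjusted p of 0.0561 and an adjusted p of 0.532 in edgeR. DESeq2 gave 0.81 with an unadjusted p of 0.0219 and an adjusted p of 0.366. The lowest value with a library left out was 0.32 (cisplatin replicate 1 removed) and the highest 1.17 (cisplatin replicate 2 removed). Its first 265 bases overlap Ssrp1, a chromatin gene on the opposite strand with 1913 to 2369 counts, and whether counting used strand was not given.

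P2rx2 (ENSRNOG00000037456, chromosome 12, 52397792 to 52401015, plus strand) forms channels with P2X3. It had 5.27 and 2.24 CPM in vehicle and 10.5 and 4.93 CPM in cisplatin. Its libraries overlapped, because cisplatin replicate 2 lay just under vehicle replicate 1. The log2 fold change of 1.03 (SE 0.56) was the furthest from 0 among the 10 receptors, at an unadjusted p of 0.119 and an adjusted p of 0.582 (edgeR). It was 0.39 without cisplatin replicate 1 and 1.79 without vehicle replicate 1.

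P2rx4 (ENSRNOG00000001300, chromosome 12, 39308025 to 39325673, minus strand), a highly calcium-permeable channel of neurons and immune cells, had 20.1 and 26.3 CPM in vehicle and 41.7 and 28.1 CPM in cisplatin. The groups did not overlap, but cisplatin replicate 2 exceeded vehicle replicate 2 only narrowly. The log2 fold change was 0.59 (SE 0.28; unadjusted p = 0.0799, adjusted p = 0.551, edgeR) and ran from 0.29 to 0.85 as each library was left out.

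P2rx7 (ENSRNOG00000001296, chromosome 12, 39353613 to 39396042, minus strand) lies beside P2rx4 and encodes the channel that needs high ATP and triggers the NLRP3 inflammasome in macrophages. It had 22.2 and 29.8 CPM in vehicle and 9.45 and 22.0 CPM in cisplatin. Both cisplatin libraries were lower, though replicate 2 lay only just under vehicle replicate 1. The log2 fold change was −0.73 (SE 0.43), with an unadjusted p of 0.143 and an adjusted p of 0.605 in edgeR. Without cisplatin replicate 1 it was −0.23, and without cisplatin replicate 2 it was −1.46. The P2rx4 to P2rx7 ratio of FPKM was 1.75 and 1.71 in vehicle and 8.55 and 2.47 in cisplatin. Because P2rx4 was higher and P2rx7 lower in both cisplatin libraries, the ratio had to separate the groups. It therefore adds nothing to the values of the 2 genes.

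For the remaining P2X genes the libraries of the groups overlapped. P2rx5 (chromosome 10), a channel subunit that conducts weakly in rodents, had 16.1 and 11.4 CPM in vehicle and 20.4 and 13.5 CPM in cisplatin, a log2 fold change of 0.30 (SE 0.30; edgeR adjusted p = 0.755; −0.02 to 0.58 with a library left out). P2rx6 (chromosome 11), a subunit that acts mainly within mixed channels, had 33.8 and 29.8 CPM against 36.8 and 26.9 CPM, a log2 fold change of 0.0049 (SE 0.23; adjusted p = 0.996; −0.23 to 0.21 with a library left out). The cisplatin libraries of P2rx6 enclosed the vehicle libraries, and its sign flipped under 7 of 16 alternative settings.

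Among the P2Y receptors every pair of groups overlapped. P2ry1 (chromosome 2, 151314818 to 151320319, plus strand), an ADP receptor coupled to Gq, had 63.2 and 33.4 CPM in vehicle and 46.2 and 28.7 CPM in cisplatin. Replicate 1 was the higher library in each group, and the log2 fold change of −0.37 (SE 0.38; edgeR adjusted p = 0.769) became 0.17 without vehicle replicate 1. P2ry2 (chromosome 1, 166031272 to 166037424, minus strand), the Gq-coupled receptor for ATP and UTP, had 26.9 and 58.4 CPM against 14.7 and 44.4 CPM. Here replicate 2 was the higher library in each group, by more than the groups differed. The log2 fold change was −0.53 (SE 0.60; adjusted p = 0.789), and it became 0.13 without vehicle replicate 2 and 0.07 without cisplatin replicate 1.

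P2ry12 and P2ry14 share a stretch of chromosome 2 with other P2Y genes. P2ry12 (149441598 to 149444548, minus strand), the Gi-coupled ADP receptor of platelets and microglia, had 67 and 74 counts in vehicle and 35 and 68 counts in cisplatin. That gave 2.68 and 3.76 CPM against 1.38 and 2.89 CPM, with a log2 fold change of −0.59 (SE 0.49; edgeR adjusted p = 0.708; −1.22 to −0.14 with a library left out). P2ry14 (149331948 to 149347796, minus strand), the receptor for UDP-glucose, had 62 and 55 counts in vehicle and 44 and 77 in cisplatin. Its log2 fold change was −0.08 (SE 0.44; adjusted p = 0.964; −0.60 to 0.32 with a library left out). Both genes lie wholly inside Med12l on the opposite strand, which had 272 and 173 counts in vehicle and 152 and 116 in cisplatin (log2 fold change −0.85, unadjusted p = 0.0236, edgeR). Only the spans of the genes were compared. Whether their exons overlap was not examined and whether strand was used was not given, so any sharing of reads with Med12l was not assessed.

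**Figure D2:**
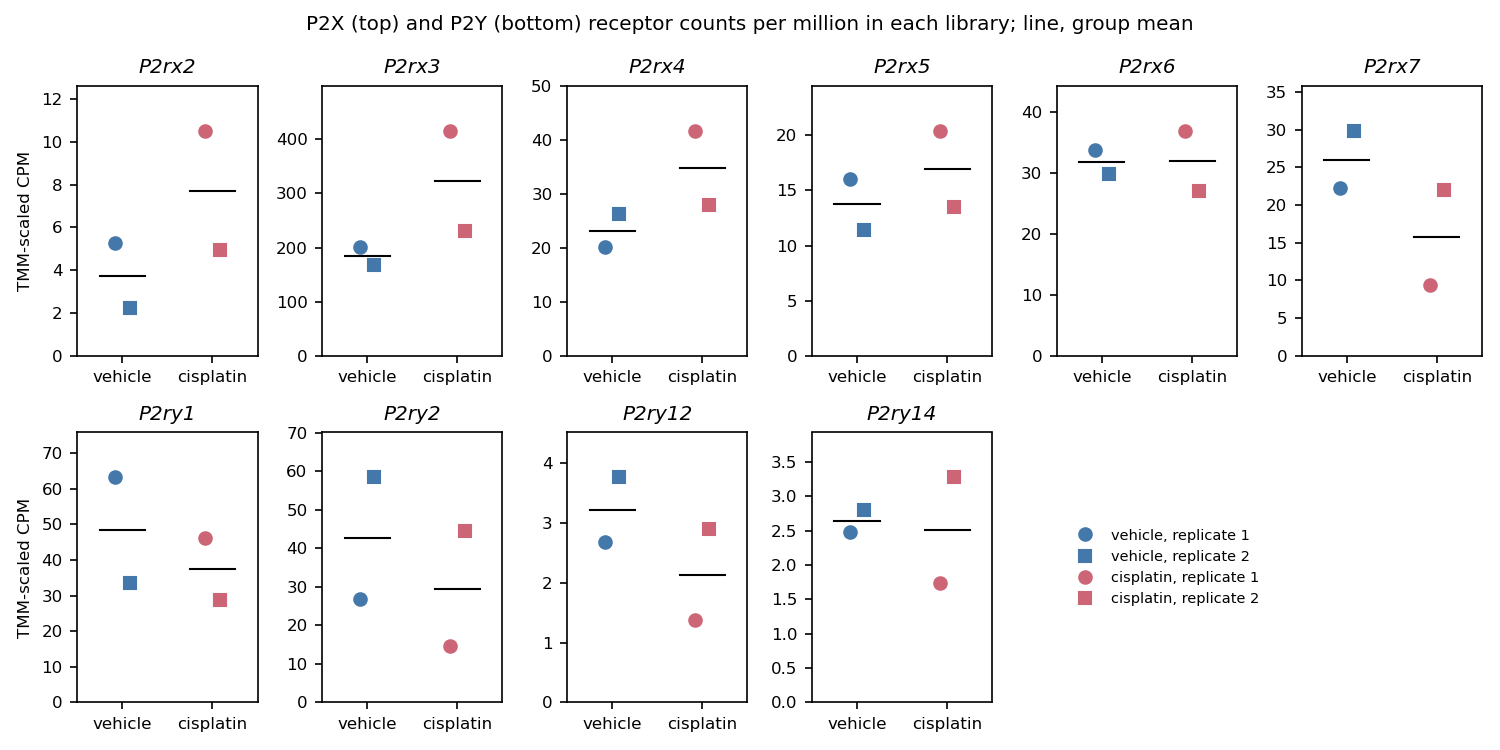
TMM-scaled CPM of each receptor in the 4 libraries (blue, vehicle; red, cisplatin; circle, replicate 1; square, replicate 2; black line, mean of 2 libraries), P2X genes above and P2Y genes below, each on its own axis from 0. The cisplatin libraries lie above the vehicle libraries for P2rx3 and P2rx4 and below them for P2rx7, and they overlap for the other 7.

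**Figure D3:**
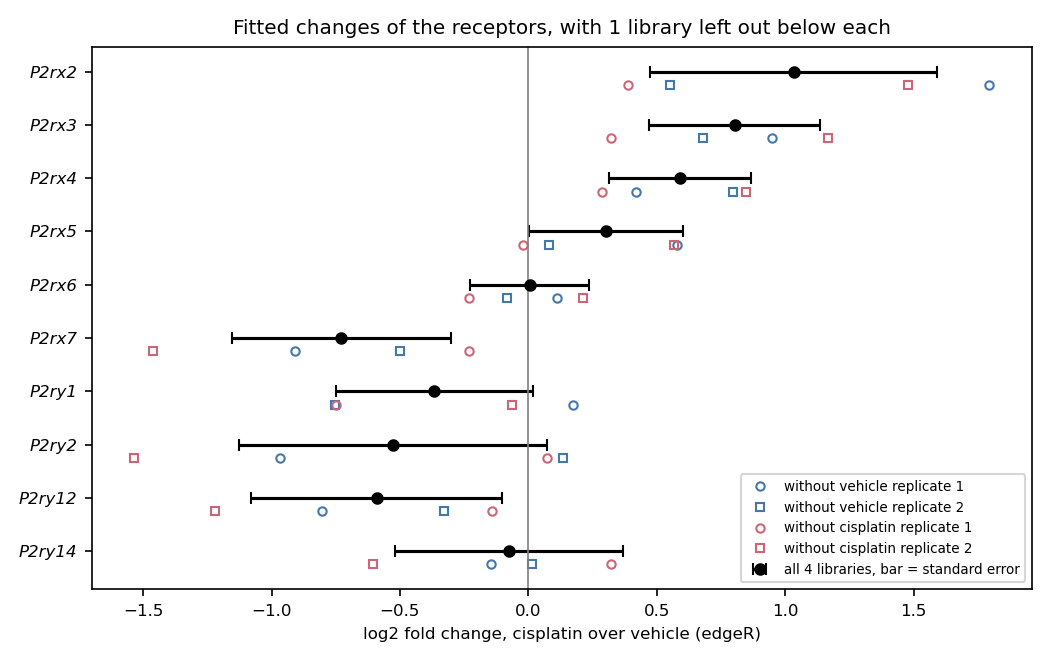
Log2 fold changes of the 10 receptors, cisplatin over vehicle, from edgeR (black, with bars of 1 standard error), with the value after leaving out each library drawn as an open marker beneath. P2rx2, P2rx3, P2rx4, P2rx7 and P2ry12 keep their side of 0 with any library left out, and P2rx3 spans 0.32 to 1.17.

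The receptors divided by which replicate of a group was higher, alike in both groups for all but P2rx4. Replicate numbers are shared in the titles only and do not establish a pairing. Exchanging the numbers within either group would invert its ratios. The ratio of replicate 2 to replicate 1 in CPM was below 1 in vehicle and in cisplatin for P2rx2 (0.424 and 0.469), P2rx3 (0.836 and 0.555), P2rx5 (0.712 and 0.663), P2rx6 (0.881 and 0.731) and P2ry1 (0.529 and 0.621). The summed sensory neuron markers had ratios of 0.768 and 0.701. The ratio was above 1 in both groups for P2ry2 (2.17 and 3.02), P2rx7 (1.34 and 2.33), P2ry12 (1.40 and 2.10) and P2ry14 (1.13 and 1.89). The summed Schwann cell markers had 2.37 and 2.94, the 8 fibroblast and meningeal markers 1.36 and 1.95, the endothelial and mural markers 1.35 and 1.49, and the 13 macrophage and microglia markers 1.15 and 1.09. The 8 satellite glia markers summed to 4078 and 3340 CPM in vehicle and 4424 and 3836 CPM in cisplatin. Replicate 2 was thus the lower in each group, as for the neuron markers. P2rx4 had a ratio of 1.31 in vehicle and 0.673 in cisplatin. These ratios are descriptions of 4 libraries.

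**Figure D4:**
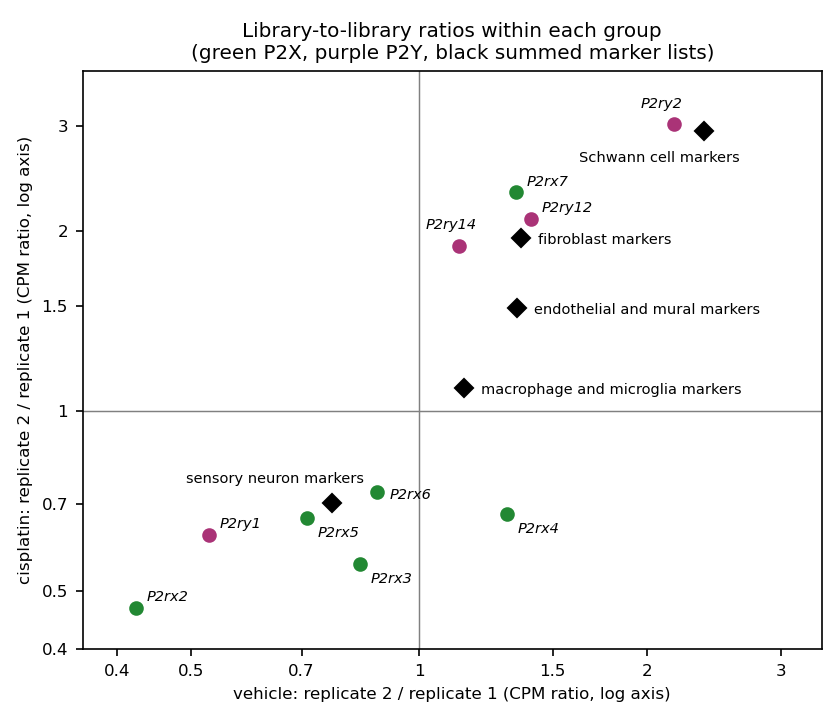
Ratio of replicate 2 to replicate 1 in CPM within vehicle (x axis) and within cisplatin (y axis), both on log axes, for P2X genes (green), P2Y genes (purple) and 5 summed marker lists (black diamonds). P2rx2, P2rx3, P2rx5, P2rx6 and P2ry1 lie at the lower left, as do the neuron markers. P2rx7, P2ry2, P2ry12 and P2ry14 lie at the upper right, as do the Schwann cell, fibroblast, endothelial and macrophage markers. Satellite glia markers, lower in replicate 2 of both groups, are not drawn. Replicate numbers follow the titles and establish no pairing.

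The marker lists also leaned with treatment. All 10 neuron markers had a positive log2 fold change (median 0.36), 4 of them with cisplatin libraries above vehicle libraries (20.6% of all genes), and their sum was 15527 and 11932 CPM in vehicle and 20168 and 14137 CPM in cisplatin. All 7 Schwann cell markers had a negative one (median −0.43), none with separated libraries. edgeR passed 0 of the 10 and 0 of the 7 at an unadjusted p. Of the 8 satellite glia markers 3 were positive and 5 negative (median −0.06). The 1 that passed an unadjusted p with the 1.5-fold limit (7.95% of all genes) was Kcnj10 (−1.11, edgeR adjusted p = 0.522). Of the 7 endothelial and mural markers tested 6 were negative (median −0.34; 3 with both cisplatin libraries lower, against 21.2% of all genes). Of the 8 fibroblast and meningeal markers 5 were negative (median −0.43; 3 lower, 2 higher), among them the collagen gene Col1a2 (−1.59, edgeR adjusted p = 0.522). The marker with the smallest p in this list, Ptgds, went the other way (2.07, edgeR adjusted p = 0.287). All 4 skeletal muscle markers were negative, but 0 had separated libraries. Their sum was 523 CPM in vehicle replicate 1 and 16.7 CPM in vehicle replicate 2, against 55.1 and 17.4 CPM in cisplatin. Their sign thus turned on 1 vehicle library. All 4 neutrophil markers were positive (median 0.79), 3 with both cisplatin libraries higher (20.6% of all genes). The part of these cell types in the receptor values was not tested. Nefh made up much of the neuron marker sum, at 6986 and 5006 CPM in vehicle and 7356 and 5212 CPM in cisplatin. Ratios to this sum therefore weigh abundant markers most. Set against the neuron markers, P2rx3 had 13 and 14.1 counts per 1e3 marker counts in vehicle and 20.6 and 16.3 in cisplatin, and P2rx2 had 0.340 and 0.187 against 0.521 and 0.349. On this scale both were higher in both cisplatin libraries, P2rx2 narrowly so. P2rx4, with 1.29 and 2.20 against 2.07 and 1.98, overlapped. P2ry1 had 4.07 and 2.80 against 2.29 and 2.03, and P2rx6 had 2.18 and 2.49 against 1.83 and 1.91, so that both were lower in both cisplatin libraries. The share of all genes separated on this scale was not computed, so these separations do not set the receptors apart. When edgeR was scaled to these markers, a choice made after seeing the data, and with the median of all genes at −0.31, the log2 fold change was 0.45 for P2rx3, 0.72 for P2rx2 and 0.21 for P2rx4, and 0 of 10 receptors were called.

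Nonpeptidergic nociceptors are the neurons in which P2X3 is classically found. Their 8 other markers summed to 689 and 513 CPM in vehicle and 845 and 553 CPM in cisplatin, with 8 of 8 log2 fold changes positive (median 0.34) and 0 of 8 passing edgeR at an unadjusted p. Mrgprd, an itch and mechanical pain receptor of these neurons, had 172 and 88 counts in vehicle and 320 and 144 in cisplatin (log2 fold change 0.72, edgeR adjusted p = 0.614). Gfra2, the neurturin receptor, had 1955 and 1491 against 2804 and 1940 (0.33, edgeR adjusted p = 0.635). The macrophage and microglia markers summed to 77.1 and 88.4 CPM in vehicle and 87.5 and 95.7 CPM in cisplatin, none at 0. Of these 13 markers, 9 had a positive log2 fold change and 4 a negative one. Both cisplatin libraries were higher for 4 (20.6% of all genes) and lower for 3 (21.2%), namely Cd163, Aif1 and Ptprc. At an unadjusted p with the 1.5-fold limit 1 of the 13 passed (7.95% of all genes). It was C1qc, a complement subunit (log2 fold change 0.71, edgeR adjusted p = 0.522).

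Genes whose profile over the 4 libraries was most like that of P2rx3 were found by the root mean square distance of centred log2 CPM. The nearest were Rbp2 (0.0178), Cish (0.0304), Pkd1l1 (0.0391), Tmem25 (0.0452) and Tango2 (0.0475), and 47 genes lay within 0.1. For P2ry12 the nearest were Agpat9 (0.0271), Slfn5 (0.0301), Zbtb37 (0.0383), Col14a1 (0.0417) and Dhh (0.0426), with 89 genes within 0.1. Only 4 libraries enter each distance.

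The P2 receptors outside the 10 were all scarce. P2rx1, the channel of platelets and smooth muscle, had 15 and 24 counts in vehicle and 20 and 27 in cisplatin. P2ry6, the UDP receptor, had 25 and 38 against 35 and 53, and P2ry13, an ADP receptor, had 7 and 18 against 20 and 10. These 3 were tested and had log2 fold changes of 0.10, 0.32 and 0.05. P2ry4, P2ry10 and Gpr17, a P2Y-like receptor of oligodendrocyte precursors, were below the filter. Gpr17 had 18 counts in vehicle replicate 1, the library with the high Aqp4 count, and 0 to 3 in the others.

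Upstream of the receptors, no gene for ATP release, ATP breakdown or adenosine handling passed. Of 6 ATP release genes 0 passed edgeR at an unadjusted p, and Panx2, a pannexin, had the smallest p (log2 fold change 0.33, adjusted p = 0.724). Of 8 ectonucleotidases tested, the surface enzymes that degrade ATP to adenosine, 0 passed. The smallest p was that of Acpp, the nociceptor acid phosphatase that makes adenosine from AMP, with 2343 and 1415 counts in vehicle and 3714 and 1906 in cisplatin (0.46, edgeR adjusted p = 0.665). Of 6 adenosine genes tested 0 passed, although 6 of 6 log2 fold changes were positive (median 0.29). Adk, adenosine kinase, had the smallest p (0.42, edgeR adjusted p = 0.614).

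Downstream of the P2Y receptors, the signalling genes leaned lower. Of 11 G protein, phospholipase and IP3 receptor genes tested, 9 had a negative log2 fold change (median −0.67), 6 had both cisplatin libraries below both vehicle libraries (21.2% of all genes), and 4 passed an unadjusted p with the 1.5-fold limit, all lower in cisplatin (5.18% of all genes passed in that direction). None passed after adjustment (edgeR adjusted p = 0.522 for each of the 4). Gnaq, the Gq subunit through which P2Y1 and P2Y2 signal, had 28.9 and 21.9 FPKM in vehicle and 14 and 11.6 FPKM in cisplatin, a log2 fold change of −0.99 (SE 0.23). Gna11, its close relative, had 19.0 and 20.8 FPKM against 11.8 and 13.3 FPKM (−0.68). Gnai1, one of the Gi subunits in the list, had 63.6 and 62.0 FPKM against 33.8 and 43.6 FPKM (−0.71). Itpr1, an IP3-gated calcium channel, had a log2 fold change of −0.90. Gnai2, also a Gi subunit and the most abundant of the 11 by FPKM, did not share this lean, with 144 and 167 FPKM in vehicle and 162 and 169 FPKM in cisplatin. Over all genes tested, log2 fold change and gene length had a Spearman correlation of −0.36, a description across genes that are not independent. The genes were therefore refitted with a gene length correction. Length here was the deposited gene length, 1348 bases for Gnaq, which runs from 233382708 to 233622786 on chromosome 1. The span of a gene on the chromosome was not corrected for. After the correction Gnaq had −1.07, Gna11 −0.76 and Gnai1 −0.77, whereas Itpr1 had −0.44 and no longer passed an unadjusted p. In that fit P2rx3 had 0.99 and P2rx7 stood at −0.56 (adjusted p = 0.667 and 0.744, edgeR).

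Of 8 effectors of P2X4 and P2X7, 1 passed an unadjusted p with the 1.5-fold limit (7.95% of all genes). Nlrp3, the inflammasome sensor that P2X7 activates, had 36 and 29 counts in vehicle and 12 and 9 in cisplatin, with a log2 fold change of −1.75 (SE 0.47, unadjusted p = 0.0117, edgeR adjusted p = 0.522). Its inflammasome partners Pycard and Casp1 leaned the other way, at 0.51 (edgeR adjusted p = 0.701) and 0.53 (0.709). Pycard had 45 and 38 counts in vehicle and 52 and 77 in cisplatin, and Casp1 had 25 and 29 against 47 and 40. Both cisplatin libraries were higher for 3 of the 8 effectors, these among them (20.6% of all genes), and lower for 3, Nlrp3, Mapk14 and Il1b (21.2%). Il1b, the cytokine the inflammasome releases, had 7 to 11 counts in every library. Bdnf, the growth factor that P2X4 signalling releases from microglia and that nociceptors also make, had 585 and 478 counts in vehicle and 837 and 728 in cisplatin (0.42, SE 0.18, edgeR adjusted p = 0.537). With the gene length correction it had 0.74 and also passed an unadjusted p (edgeR adjusted p = 0.667).

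**Figure D5:**
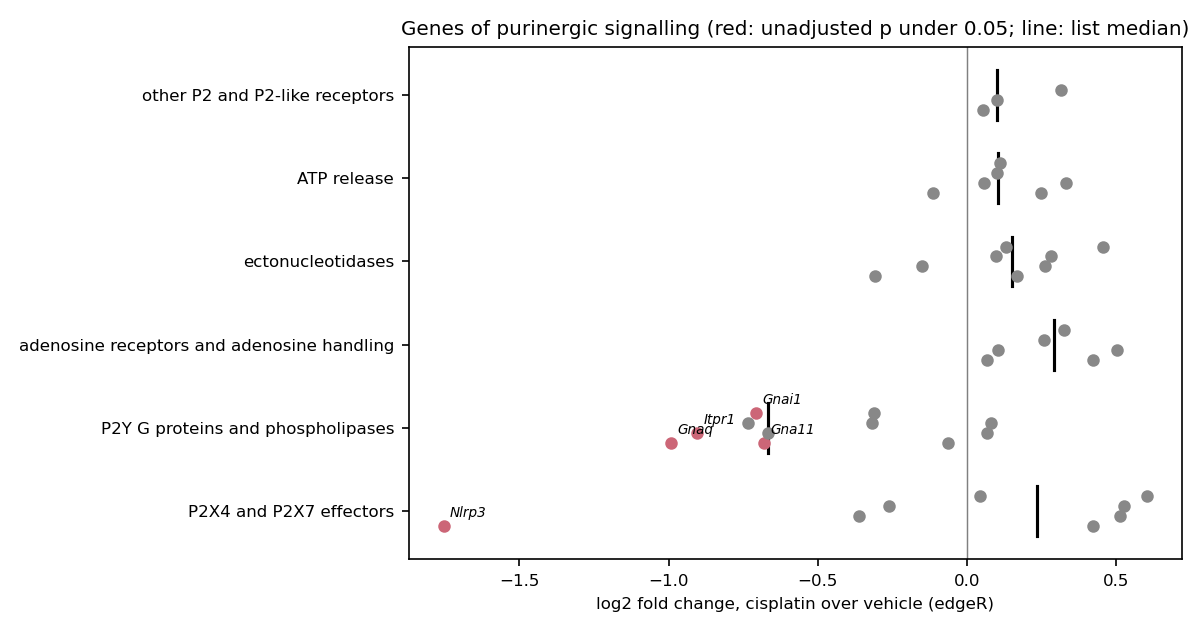
Log2 fold changes, cisplatin over vehicle, from edgeR for the tested genes of 6 purinergic signalling lists (red, unadjusted p under 0.05; grey, other genes; black line, median of the list). The 4 marked P2Y signalling genes lie between −0.99 and −0.68 and Nlrp3 at −1.75, while the lists for ATP release and ectonucleotidases have medians of 0.10 and 0.15.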

How the data were processed

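RNA of lumbar DRG was measured in 2 vehicle and 2 cisplatin libraries, grouped and numbered by their labels. The authors mapped reads to Rnor_6.0 and deposited raw counts per gene. Submitters' processing notes name HISAT2 2.0.5, StringTie 1.3.3b and featureCounts 1.5.0-p3. Whether libraries or counting were stranded was not given in the sources used here. The FPKM values deposited by the authors were the counts over gene length and a library constant, 0.938 to 1.10 times its total.

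Protein-coding genes kept by filterByExpr (14719) were TMM-normalised and compared with edgeR 4.0.16 (quasi-likelihood, R 4.3.3) without a block, after tests on simulated data. The simulated data varied less than these (edgeR common dispersion 0.0711) and held larger changes than any receptor had. They therefore say nothing of the power of the test here. A call needed a 1.5-fold change and p below 0.05 after Benjamini-Hochberg adjustment. DESeq2 1.42.0 and limma 3.58.1 on log2(FPKM + 1), which understates changes of low genes, or on log2(FPKM + 0.1) were alternatives, besides other scalings, filters, a gene length offset (lowess span 0.3), a replicate block and leaving out each library. Centred log2 CPM used a prior count of 2. All 10 receptors were named. In pathway lists, genes with the smallest p or on which a list turned were named. The receptors and lists were chosen with earlier results of these data known, and 1 gene of the lists is not reported here. The floor of 3 counts covers counting error only, since reads that carry no molecular identifier may repeat a molecule.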

Additional observations from a re-analysis of the deposited data

How the results depend on the processing

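Over 16 alternatives, the log2 fold changes of the 10 receptors kept their sign and side of the threshold in 138 of 160 values, gained a call in 8 and reversed in 14. P2rx2, P2rx3 and P2rx4 were higher and P2rx7 and P2ry12 lower in every one. The number of receptors called was 0 except with the replicate block. Replicate numbers are shared in the titles only, so the pairing is not established by the design; replicate 2 minus replicate 1 correlated between groups across 14719 genes (Pearson 0.444, Spearman 0.567). With the replicate block 4 receptors were called, as were 1532 genes (10.4%): P2rx2 (1.06, adjusted p = 0.020), P2rx3 (0.75, 0.00893), P2rx7 (−0.83, 0.0193) and P2ry2 (−0.62, 0.0227), all log2 fold changes from edgeR. With the replicate block and gene length correction 4 receptors were called, P2rx5 in place of P2rx7, and 1011 genes.

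At an unadjusted p with the 1.5-fold limit, 1 receptor, P2rx3, passed with no filter on low counts (7.71% of all genes did), with DESeq2 (8.61%) and with the gene length correction (6.16%). With the block 4 passed (14.2%), with the block and length correction 6 (11.6%), and with 1 library left out 0 to 5 (4.12% to 12.7%). The genes called over the whole table, 1 at first, were 4 with no filter, 2 when each library had to hold 10 counts or more, 140 by DESeq2, 4 by limma with 1 added to FPKM and 2 with 0.1 added, 0 to 7 with 1 library left out and 0 when scaled to sensory neuron markers (chosen after seeing the data). Receptors higher in both cisplatin libraries numbered 1 by library size alone and 2 to 5 with 1 library left out. Those lower numbered 2 by library size, 2 scaled to neuron markers and 2 to 4 with 1 library left out, fewer libraries being easier to separate. The shares of all genes separated under these settings were not computed. The median log2 fold change of the receptors was −0.32 scaled to neuron markers, and with 1 library left out it was above 0 each time, at 0.026 to 0.14, against −0.04 with all 4.

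Reversed values were these. P2rx5 was −0.019 scaled to neuron markers, and −0.021 to 0.58 with 1 library left out. P2rx6 was −0.049 by library size alone, −0.0076 with the replicate block, −0.0023 and −0.0033 by limma and −0.32 scaled to neuron markers, and −0.23 to 0.21 with 1 library left out. With 1 library left out P2ry1 ran from −0.75 to 0.17, P2ry2 from −1.53 to 0.13 and P2ry14 from −0.60 to 0.32. The causes were not tested. Depth limits P2ry12 and P2ry14 most, at 35 to 77 counts a library. Summed levels of the receptors averaged 139 FPKM and 142 counts per kilobase per 1e6 TMM-scaled counts.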
